A study of Mus musculus with 8 samples.

Results

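Liver cells carrying the neurotrophin receptor p75NTR were compared across birth, by setting a newborn (P1) array against the last fetal (E17.5) array. Each stage was measured on 1 array of the 8 in the series, so the comparison has no replicate, no spread between animals and no test. At both stages mouse livers were dissociated with collagenase, and the fraction lacking CD45 and Ter119 and carrying p75NTR was collected by flow cytometry. CD45 marks leukocytes and Ter119 marks red cells. Strain, sex and the number of animals behind each array are not given in the sources used here. Of the other arrays, 3 held the same fraction at E11.5, E13.5 and E14.5, and 1 held adult hepatic stellate cells sorted by vitamin A. These serve below to place the 2 arrays compared. The remaining arrays held cultured embryonic skin fibroblasts and bone marrow mesenchymal stem cells. They are used only in an alternative normalization, to choose probes and beside the acinar genes. A level is the log2 spot signal relative to the 75th percentile of its array, and a difference is the P1 level minus the E17.5 level. A value given for another probe of a gene, or for a range over its probes, is such a log2 difference and not a fold. Genes entered when the brighter of the 2 arrays was well above background, which left 14817 genes of the 16520 that were well above background on any of the 8 arrays. Where the dimmer array was not well above background the difference is a bound and is written as "at least".

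p75NTR is encoded by Ngfr and marks hepatic stellate cells, the perivascular mesenchymal cells of the liver sinusoid. In the adult these cells store vitamin A as retinyl esters, and after injury they turn into contractile, matrix-making myofibroblasts. Fetal stellate cells arise from the mesenchyme under the liver's surface and sit beside a liver that makes blood. Around birth blood formation moves to the bone marrow, the placental circulation ends and the liver starts to live on milk fat. Mesenchymal cells around the portal vein, called portal fibroblasts, make elastic fibres and carry markers such as Thy1.

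The labelled cell type was checked against its markers. Ngfr stood at 4.83 on the E17.5 array and 4.01 on the P1 array, far above the lowest level well above background (-5.83 and -5.80). Of 20 stellate cell markers measured, 19 were well above background at E17.5 and 18 at P1. Ptprc, which encodes CD45, was not well above background on the brighter array and is not among the genes compared. Markers of red cells, granulocyte precursors, portal fibroblasts, bile duct cells, nerve and exocrine pancreas were present at one or both stages and differed between the arrays, with their values given below.

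The P1 array had more outlier spots (192 against 90) and a larger CV of replicate spots (5.49% against 4.29%) than the E17.5 array. The share of 43020 non-control spots well above background was 61.0% at E17.5 and 64.5% at P1, no spot was saturated (0 on each), and the slope of the spike-in controls was 0.922 and 0.926. Over 399 probes printed 10 times, the SD of log2 signal among repeat spots had a median of 0.07 at E17.5 and 0.08 at P1 for the probes well above background. A difference between single spots therefore carries a median SD of 0.11 from the array alone, which covers neither labelling nor animals. After scaling, 8 spike-in probes differed by -0.04 to 0.16 between the arrays. The 4 fetal arrays share slide 1, and the P1 array lies on slide 2 with the adult stellate cell, fibroblast and mesenchymal stem cell arrays. Stage and slide cannot be told apart.

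With arrays scaled to their 75th percentile more genes were higher than lower at P1. At least 2-fold higher were 1540 genes (10.4% of those compared) and at least 2-fold lower 621 (4.19%). With arrays scaled to their median this order turned round, with 940 higher and 1402 lower. At least 4-fold higher were 350 genes (2.36%) and at least 4-fold lower 104 (0.702%), so 77.1% of the genes past 4-fold were higher. The median of all genes was 0.01. The excess of higher genes was largest among dim genes and shrank with level. With both arrays above background, the median difference was 0.34 over 1242 genes whose mean level lay below -4 and 0.20 over 2529 genes with a mean level between -4 and -2. It was 0.01 over 3291 genes between -2 and 0, -0.13 over 2180 genes between 2 and 4 and -0.11 over 866 genes above 4. At least 2-fold higher were 16.5% of the genes between -4 and -2, 9.27% of those between -2 and 0 (4.56% lower), 2.89% of those between 2 and 4 and 1.39% of those above 4. Counts in lists of dim genes are to be read against the first of these shares. Other list counts at 2-fold are to be read against the shares of all genes, 10.4% higher and 4.19% lower. The share of 4-fold genes that were higher came to 55.3% when arrays were scaled to their median, 54.3% after a loess fit between the arrays and 64.3% after quantile normalization. Scaling to the median moved the median of all genes to -0.33, and the list medians moved with it, so they stood nearly as before relative to all genes. The exception was the list of growth factor inhibitors, which moved by less, from 0.60 to 0.40.

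The genes higher at P1 were mostly higher there than at any fetal stage. Of the 350 genes at least 4-fold higher, 308 (88.0%) were above all 4 fetal arrays, against 25.7% of all genes compared. Only 119 of them (34.0%) were well above background in adult stellate cells, against 86.2% of all genes compared. The genes lower at P1 had another profile. Of the 104 at least 4-fold lower, 53 (51.0%) lay below all 4 fetal arrays, and in 70 (67.3%) the E17.5 level was above the other fetal arrays as well as P1, against 16.6% of all genes compared. These positions use the E17.5 and P1 values that chose the genes, so they describe the sets and test nothing. The numbers of 4-fold genes differed from step to step before birth: 306 higher and 239 lower from E11.5 to E13.5 (2.14% and 1.67%), 414 and 99 from E13.5 to E14.5 (2.85% and 0.682%), and 252 and 544 from E14.5 to E17.5 (1.74% and 3.75%). The step before birth thus had more lower than higher genes, the reverse of the step across it. Those steps lie within slide 1.

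Stellate cell genes were lower at P1 than at E17.5 as a group. Of 19 stellate cell markers compared, 9 were at least 2-fold lower and 2 at least 2-fold higher, and their median was -0.93 against 0.01 for all genes. Lrat, the enzyme that esterifies retinol for storage, stood at -4.68, -1.89, 0.61 and 2.16 on the fetal arrays from E11.5 to E17.5, at -0.13 at P1 and at 5.12 in adult stellate cells. The P1 level lay between E13.5 and E14.5, 4.91-fold below E17.5. Gdf2, which encodes the circulating ligand BMP9, stood at 4.36, 4.90, 5.48 and 5.86 on the fetal arrays, at 4.04 at P1 and at 6.6 in the adult. Its P1 level was 3.53-fold below E17.5 and the lowest of these arrays. The nuclear receptor Nr1h5 was nearly level over the fetal arrays at 4.29, 4.02, 4.26 and 4.20, and was 2.36 at P1 and 4.31 in the adult. Colec10, a secreted collectin, was 6.79 at E17.5, 5.22 at P1 and 7.46 in the adult (2.97-fold lower at P1). The remaining members at least 2-fold lower were Angptl6 (6.86 at E17.5, 5.30 at P1), Reln, the extracellular signal reelin (1.38, -0.11), Lhx2, a LIM homeobox factor (4.75, 3.30), Hgf, the hepatocyte growth factor (2.09, 0.88), and Rspo3, an enhancer of Wnt signals (3.37, 2.24). The summed level of the list was 9.39 at E17.5 and 8.5 at P1, while that of portal fibroblast markers was 6.94 and 8.06, and the part of other cells in the lower stellate levels was not tested.

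The sorted receptor itself moved less. Ngfr stood at 4.97, 3.24, 4.75 and 4.83 on the fetal arrays, 4.01 at P1 and 6.42 in the adult, a difference of -0.82 across birth that is under 2-fold. Des, desmin, differed by 0.30 and Tcf21, a transcription factor of visceral mesenchyme, by 0.31, and both became negative when arrays were scaled to their median. Cygb, cytoglobin, an oxygen-binding protein of stellate cells, was 4.94 at E17.5, 6.31 at P1 and 7.57 in the adult. Among markers it was the clearest exception, 2.59-fold higher at P1, and Rgs5, a regulator of G protein signalling in pericytes, was 2.36-fold higher (1.24). Of 14 pericyte genes compared, which include Cygb and Rgs5, 3 were at least 2-fold higher and 1 lower, with a median of -0.56. The third higher member was Higd1b, 2.42-fold, and the lower was Agtr1a, the angiotensin receptor, from 4.41 to 3.06. Endothelin receptors, Pdgfrb and Notch3 all stayed under 2-fold. In bulk RNA, fewer cells of a type and less RNA per cell cannot be told apart, here and in each result below.

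Retinoid genes went both ways. Of 23 compared, 4 were at least 2-fold higher and 5 lower, where 10.4% and 4.19% of all genes were. The median was 0.03, and its sign changed in 3 of 9 alternatives. Besides Lrat, the lower members were Crabp1, a retinoic acid binder, from -3.49 to a P1 level near the background limit (at least 4.61-fold lower), Bco1, which cleaves carotene, from -0.70 to -2.52, and the receptors Rarb, from 2.96 to 1.38, and Rxra, from -0.13 to -1.24. The higher members were enzymes that oxidise retinoids or carotenoids. Aldh1a2, a retinaldehyde dehydrogenase, was -2.44 at E17.5 and 0.08 at P1, a 5.75-fold difference, and -6.10 in adult stellate cells, where it was not well above background. Aldh1a1, a related enzyme, was 1.17 and 2.27, Adh1, an alcohol dehydrogenase, -1.07 and 0.22, and Bco2 was at least 1.40 higher on the log2 scale.

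Transcription factors of hepatic mesenchyme gave 4 lower and 2 higher members of 20 compared, with a median of -0.31. The share that was higher matched that of all genes (10.4%), and 4.19% of all genes were lower. The lower ones were Nr1h5, Rarb, Lhx2 and Nr2f1, an orphan nuclear receptor (3.07 at E17.5, 1.96 at P1). Lhx2 had been level over the fetal arrays at 4.78, 4.92, 4.86 and 4.75 and stood at 5.80 in the adult, so P1 was the lowest of the 6 liver arrays. The higher ones were Prrx1, a homeobox factor of fibroblasts (-2.70 and -1.61), and Foxf2, at least 5.11-fold. Gata4 and Hlx differed by -0.29 and -0.32.

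**Figure D1:**
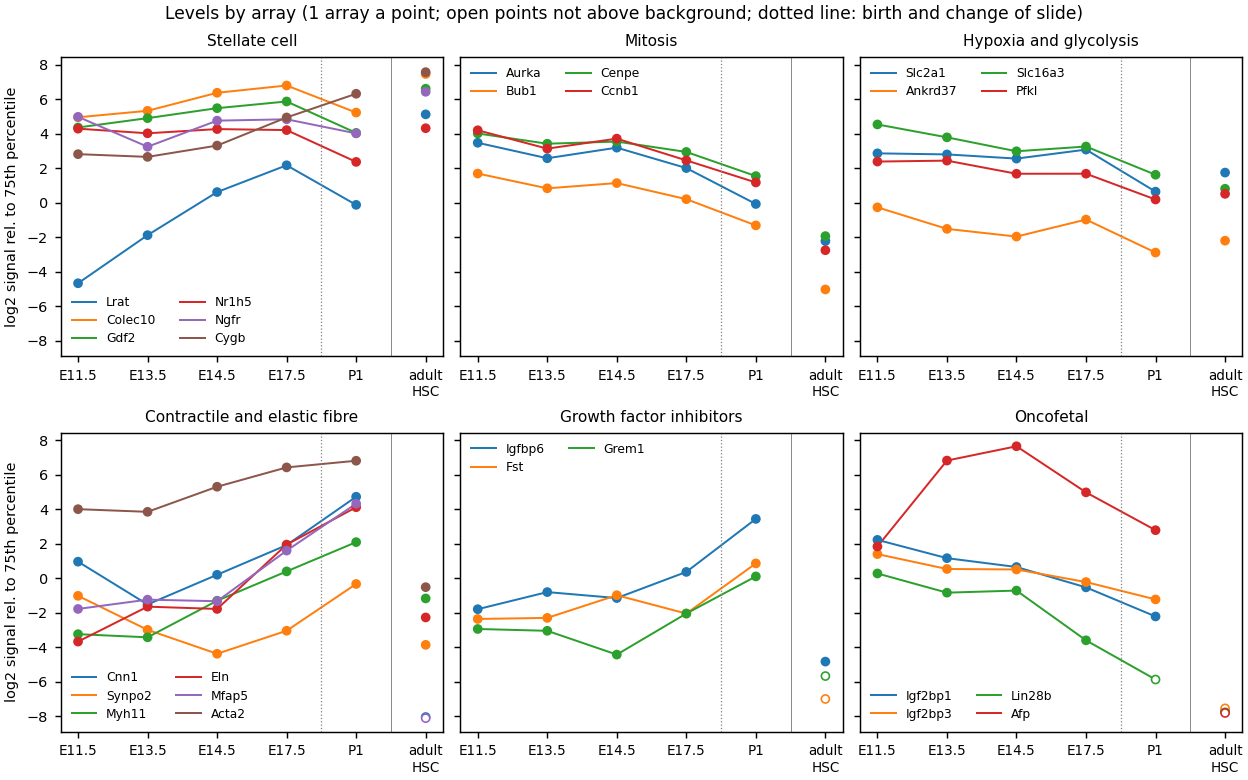
Levels of named genes in 6 groups on the 5 stage arrays in order of age and on the adult stellate cell array, as log2 signal relative to the array's 75th percentile. Each point is 1 array, open points were not well above background, and the dotted line marks birth and the change of slide. Lrat, Colec10, Gdf2 and Nr1h5 drop from E17.5 to P1 while Cygb goes on upward, and Cnn1, Eln and Mfap5 reach 4.11 to 4.72 at P1.

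Genes of mitosis were lower at P1 without exception among those compared. All 20 had a negative difference, 12 of them at least 2-fold lower, and the median was -1.04. Aurka, a kinase of the mitotic spindle, stood at 3.47, 2.57, 3.18 and 2.0 on the fetal arrays, -0.08 at P1 and -2.23 in adult stellate cells, and was 4.24-fold lower at P1. Bub1, of the spindle checkpoint, was 0.20 at E17.5 and -1.32 at P1, and Cenpe, a kinetochore motor, 2.94 and 1.54. Ccnb1, cyclin B, was 2.45 and 1.17, with 3 probes between -1.28 and -0.95. The proliferation marker Mki67 was 3.91 and 2.83. The summed signal of the 22 mitosis genes measured was 7.67, 7.0, 7.38 and 6.62 on the log2 scale over the fetal arrays, 5.52 at P1 and 2.28 in the adult, so P1 lay between E17.5 and the adult. DNA replication genes were lower by less. Of 23 compared, 22 were negative but only 2 were at least 2-fold lower, and the median was -0.53. The 2 were Cdc6, which helps load the replicative helicase (2.78-fold, with another probe at -0.86), and Gmnn, geminin (2.28-fold). Erythroid markers, given below, were lower on the P1 array as well (median -2.51 over 15 compared), and their part in the lower mitosis levels was not tested.

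Promoters of the mitosis genes often hold the CHR element, the letters TTTGAA, through which the DREAM complex is known to hold cell cycle genes down outside division. The letters were searched on both strands in windows of 300 bases, from 250 before to 50 after each annotated start (RefSeq, build GRCm38.p6). They occurred in 14 of 18 windows of the members compared (77.8%, 17 of 20 members had a window), in 7 of 11 windows of those at least 2-fold lower (63.6%), and in 5878 of 32851 windows of all genes (17.9%). This is a count of letters and not of bound sites. The 200 bases before the start are shown for Prc1, a spindle midzone protein, and Kif11, a spindle motor, the members with the largest difference among those at least 2-fold lower with the letters in this stretch. Prc1 lies on the plus strand at chr7:80294276-80294475 and Kif11 on the plus strand at chr19:37376182-37376381, and the capitals mark the element, read from the other strand in Kif11.
Prc1: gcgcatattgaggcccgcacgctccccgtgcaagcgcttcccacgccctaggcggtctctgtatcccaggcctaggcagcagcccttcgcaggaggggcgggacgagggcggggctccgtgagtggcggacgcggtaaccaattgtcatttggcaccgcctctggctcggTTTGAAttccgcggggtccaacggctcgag
Kif11: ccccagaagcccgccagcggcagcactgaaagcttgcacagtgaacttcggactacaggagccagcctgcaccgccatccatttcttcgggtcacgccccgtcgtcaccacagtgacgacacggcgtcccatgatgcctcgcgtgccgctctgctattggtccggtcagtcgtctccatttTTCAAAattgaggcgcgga
The element begins 30 bases before the start in Prc1 and 19 bases before it in Kif11. Prc1 was 3.51 at E17.5 and 2.35 at P1 (2.24-fold lower), and Kif11 -0.75 and -1.85 (2.15-fold lower).

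Genes of the hypoxia response and glycolysis were lower at P1. Of 28 compared, 12 were at least 2-fold lower and 0 at least 2-fold higher, 27 were negative, and the median was -0.74. Slc2a1, the glucose transporter GLUT1, was level over the fetal arrays at 2.85, 2.79, 2.55 and 3.07 and stood at 0.63 at P1 and 1.74 in adult stellate cells. The P1 level was 5.42-fold below E17.5 and the lowest of these 6 arrays. Ankrd37, a target of hypoxia-inducible factor, was -0.99 at E17.5 and -2.90 at P1 (3.77-fold lower). Slc16a3, which exports lactate, was 3.25 and 1.61, and Pfkl, a phosphofructokinase, 1.67 and 0.18. The other members past 2-fold were Higd1a, Ddit4, Hk2, Egln3, Bnip3, Pgam1, Ndrg1 and Adm, with differences from -1.42 to -1.0. Vegfa (-0.64), Ldha (-0.55) and Gapdh (-0.47) stayed under 2-fold, and Slc2a3, another glucose transporter, was the sole positive member at 0.60.

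The letters ACGTG or GCGTG form the core of the site that hypoxia-inducible factors are known to bind, and this motif was chosen after the list's values were seen. On either strand it occurred in 30 of 38 promoter windows of the members compared (78.9%, 26 of 28 members had a window), in 11 of 11 windows of those at least 2-fold lower, and in 43.8% of all windows. A core this short is common, and a match is no sign of binding. The 200 bases before the start are shown for the members with the largest differences, Slc2a1 on the plus strand at chr4:119108545-119108744 and Ankrd37 on the minus strand at chr8:45999851-46000050, with the core in capitals on whichever strand it is read.
Slc2a1: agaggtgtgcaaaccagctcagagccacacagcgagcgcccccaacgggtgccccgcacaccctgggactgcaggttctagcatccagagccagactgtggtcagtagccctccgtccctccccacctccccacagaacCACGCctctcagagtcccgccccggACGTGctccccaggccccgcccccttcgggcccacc
Ankrd37: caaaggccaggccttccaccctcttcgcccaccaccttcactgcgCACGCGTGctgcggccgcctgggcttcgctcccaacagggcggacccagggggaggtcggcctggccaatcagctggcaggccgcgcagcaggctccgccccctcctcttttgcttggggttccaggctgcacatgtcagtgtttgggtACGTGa
In Slc2a1 the cores begin 61 and 36 bases before the start. In Ankrd37 they begin 155, 152 and 6 bases before it, and the first pair overlaps.

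Genes of fetal growth leaned lower. Of 17 oncofetal and imprinted genes compared, 4 were at least 2-fold lower and 0 at least 2-fold higher, with a median of -0.62. Igf2bp1, an RNA-binding protein of fetal cells, went 2.22, 1.16, 0.65 and -0.53 over the fetal arrays to -2.22 at P1, and was not well above background in the adult. Lin28b, which blocks let-7 microRNAs, was -3.61 at E17.5 and at least 4.57-fold lower at P1, and Igf2bp3 was 2.01-fold lower. Afp, alpha-fetoprotein, a product of fetal hepatocytes, was 4.98 and 2.78 (4.57-fold lower), beside the hepatocyte markers below. Igf2 (3.69 and 3.24) and Dlk1 (-0.03) differed little. Hmga2, a chromatin protein of fetal growth, was 5.15 at E11.5, -0.93 at E17.5 and -1.84 at P1, and its difference across birth (-0.91) was under 2-fold.

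Extracellular matrix genes divided by family. Elastic fibre genes leaned upward, with 6 of 17 compared at least 2-fold higher, 0 lower and a median of 0.58. Eln, elastin, stood at -3.68, -1.65, -1.79 and 1.95 on the fetal arrays, 4.11 at P1 and -2.28 in adult stellate cells, and was 4.5-fold higher at P1. Mfap5, a microfibril protein, was 1.6 at E17.5 and 4.32 at P1 (6.6-fold) and was not well above background in the adult. Ltbp2, which binds fibrillin, was 3.74 and 5.28, Emilin2 1.04 and 2.57, Fbln2 higher by 1.38 and Ltbp1 by 1.09. Fbn1, fibrillin itself, was 3.27 and 3.46. Portal fibroblast markers were higher on the P1 array beside these genes (10 of 12 at least 2-fold, summed level 6.94 at E17.5 and 8.06 at P1 on the log2 scale). Eln, Fbln1, Fbln2 and Mfap4 stand in both lists. The part of portal fibroblasts in the elastic fibre result was not tested.

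The bulk collagens of scar did not follow. Col1a1 was 4.56 at E17.5 and 4.99 at P1, Col1a2 7.52 and 7.74, and Col3a1 6.04 and 6.32, each under 2-fold. Of 24 fibrillar collagen and crosslinking genes compared, 2 were at least 2-fold higher and 3 lower, where 10.4% and 4.19% of all genes were. The median was 0.35. The higher pair was Col5a3 (1.22 and 3.14) and Loxl1, a crosslinking enzyme that acts on elastin (3.48 and 5.28, with another probe differing by 2.09). The lower members were Col11a1, a minor fibril collagen, from 1.30 to -1.05 (5.10-fold), and the prolyl hydroxylases P4ha1 (3.07-fold) and P4ha2 (2.07-fold), which modify collagen and are known targets of hypoxia-inducible factor.

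Basement membrane genes shifted in their subunits. Of 24 compared, 7 were at least 2-fold higher and 1 lower, with a median of 0.39. Lama1, a laminin chain of embryonic basement membranes, was 3.38, 3.76, 4.52 and 5.03 on the fetal arrays, 2.66 at P1 and 5.78 in adult stellate cells. P1 was the lowest of these arrays, 5.17-fold below E17.5. The higher members included Lamc3 (-4.07 and -1.17, 7.49-fold) and Col4a6 (-0.47 and 1.27, with another probe differing by 0.82). Col4a5 was higher by 1.48, Col18a1 by 1.41, Lama2 by 1.29 and Col15a1 by at least 1.28. The main type IV collagen Col4a1 was 5.54 and 5.47, and the abundant matrix protein Sparc 7.29 and 7.46.

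Of 22 matricellular and leucine-rich proteoglycan genes compared, 7 were at least 2-fold higher and 0 lower, with a median of 0.62. Spp1, osteopontin, was below background up to E14.5, -2.80 at E17.5 and 0.11 at P1 (7.51-fold higher), and Aspn, asporin, likewise -2.01 and 0.59 (6.08-fold). Spp1 stands in the bile duct list as well. Thbs3, a thrombospondin, was 2.37 and 4.16, and Tnxb, tenascin-X, 3.04 and 4.54. Among matrix proteases and their inhibitors 9 of 20 were at least 2-fold higher and 1 lower, the lower being Adamts9 at -1.07, with a median of 0.87. The higher ones included both sides of the balance: the proteases Mmp2 (3.74 and 4.85), Mmp19 (-3.55 and -1.92) and Mmp3 (at least 3.03-fold), and the inhibitors Timp3 (1.32 and 3.05), Timp1 (0.96 and 2.02) and Timp4 (at least 2.47-fold).

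A minority of contractile genes was higher at P1. Of 18 smooth muscle genes compared, 5 were at least 2-fold higher and 0 lower, with a median of 0.46, and 4 were negative. Cnn1, calponin, was 0.96, -1.53, 0.20 and 1.92 on the fetal arrays and 4.72 at P1, a 6.98-fold difference, and it was not well above background in adult stellate cells. Myh11, smooth muscle myosin, was 0.39 and 2.09 (3.24-fold), its coactivator Myocd -1.04 and 0.60 (3.11-fold), and Actg2, enteric smooth muscle actin, 4.58 and 5.88. Synpo2, an actin-bundling protein, was 6.56-fold higher, with probes from 1.48 to 2.71. Acta2, smooth muscle actin, was 4.0, 3.85, 5.30 and 6.42 on the fetal arrays, 6.81 at P1 and -0.52 in the adult, and Tagln was 6.62 and 7.16, both under 2-fold across birth. Vascular smooth muscle and portal fibroblasts are known to express such genes, and their part was not tested.

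Growth factors split by ligand. Of 40 compared, 12 were at least 2-fold higher and 8 lower, with a median of 0.56. The lower ones were Wnt2 (-1.88 at E17.5, -5.15 at P1, 9.62-fold), Bmp10 (-0.80 and -3.21, 5.31-fold), Bmp5 (1.5 and -0.38), Gdf2, Ereg, Hgf, Bmp2 (1.82 and 0.63) and Rspo3. Wnt2 is a ligand of liver sinusoidal endothelium. Endothelial markers went both ways on the P1 array (9 of 17 positive), with Clec4g and Stab2 among the lowest as given below, and their part in the lower Wnt2 was not tested. The higher ligands included Wnt5a, a noncanonical Wnt (-0.02 and 1.78), Fgf2 (-5.47 and -3.81), Pdgfc (-1.87 and -0.24), Pdgfb (-2.91 and -1.37), Fgf7 (-3.43 and -2.04), Tgfb3 by 1.30 and Igf1 (0.27 and 1.49, probes from 0.95 to 1.43).

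Secreted inhibitors of growth factors and IGF binding proteins gave 10 of 22 at least 2-fold higher, 4 of these at least 4-fold, and 2 lower, with a median of 0.60. Grem1, a BMP antagonist, was -2.05 at E17.5 and 0.10 at P1 (4.45-fold), and Fst, the activin antagonist follistatin, -2.05 and 0.86 (7.51-fold). Igfbp6, which binds IGF2, was 0.36 and 3.44 (8.42-fold). For each of these 3 genes the P1 array was the highest of the 6 liver arrays, and the adult level was the lowest. Chrd, Nog, Igfbp2, Igfbp4, Igfbp5 and Fstl3 were higher by 1.07 to 1.56. The lower members were Hhip, which binds hedgehog ligands (3.79 and 1.87), and Chrdl1 (-0.89 and -2.56, with another probe differing by -0.26).

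Factors through which fetal liver stroma is known to support blood stem cells did not move as one. Of 16 compared, 3 were at least 2-fold higher and 2 lower, with a median of -0.22. Cxcl12, which holds stem cells in their niche, was 6.8 at E17.5 and 6.67 at P1, and Kitl, stem cell factor, -1.20 and -1.11. Vcam1, an adhesion molecule, was 3.78, 4.26, 4.87 and 5.03 on the fetal arrays and 2.51 at P1, 5.76-fold lower (with another probe at -1.95), and 4.34 in the adult. The higher members were Spp1, Angptl2 by 1.58 and Il6, interleukin-6, from -1.50 to 0.77 (4.83-fold).

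Among complement genes 4 of 21 were at least 2-fold higher and 2 lower, with a median of 0.46, where 10.4% and 4.19% of all genes were. C4b was -4.91, -2.01, 0.04 and 0.03 on the fetal arrays, 3.02 at P1 and 4.41 in the adult, 7.95-fold above E17.5. C2, whose product acts with that of C4b in the classical pathway, was 1.5 at E17.5, 4.13 at P1 and 5.46 in the adult (6.18-fold). Clu, the inhibitor clusterin, was 2.76, 5.07 and 6.67 (4.94-fold). In these 3 genes P1 lay between E17.5 and the adult level. C1s1, a protease of the same pathway, was higher by 1.25, and Colec10 and C6 were lower. Hepatocytes make complement too, and the part of hepatocyte RNA, whose summed markers are given below, was not tested. Of 20 chemokines and cytokines compared, 5 were at least 2-fold higher and 4 lower. The list is dim, with median levels of -2.67 at E17.5 and -2.90 at P1. Among all genes with a mean level between -4 and -2, 16.5% were at least 2-fold higher and 5.30% lower. The higher members were Ccl19 (5.15-fold), Cxcl5 (4.52-fold), Il6, Cx3cl1 (3.35-fold) and Ccl5 (by at least 1.07 on the log2 scale). The lower were Ccl9 (4.40-fold), Cxcl13 (3.53-fold), Cxcl9 and Cxcl2.

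Several response programs had few or no genes at least 2-fold apart. None of 23 immediate early genes was at least 2-fold apart (0 higher, 0 lower, median -0.07), with Fos at 5.46 and 5.43, Egr1 at 6.52 and 6.38 and Jun at 7.45 and 7.51. Immediate early genes are known to answer to cell dissociation, and these 3 were bright on both arrays. None of 16 genes of MHC class I presentation was 2-fold apart (0 higher, 0 lower, median -0.24). Heat shock and unfolded protein genes gave 1 of 19 lower, Sdf2l1, a chaperone cofactor of the endoplasmic reticulum (0.58 and -1.18), and a median of -0.36. Of 23 interferon-stimulated genes, 1 was at least 2-fold higher and 2 lower, where 10.4% and 4.19% of all genes were, with a median of -0.23. The higher was Ifi27l2a (1.74 and 3.73), and the lower were Gbp2 (1.89 and 0.31) and Isg15 (3.86 and 2.83). Of 21 genes induced by glucocorticoids, the hormones that peak before birth, 1 was higher (Angptl4) and 1 lower (Ddit4), with a median of -0.42. Differences were negative in 16 of 19 heat shock, 17 of 23 interferon-stimulated and 16 of 21 glucocorticoid-induced genes. They were negative in 13 of 23 immediate early and 9 of 16 MHC class I genes.

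A few lipid genes were higher at P1. Angptl4, a secreted inhibitor of lipoprotein lipase induced by fatty acids and fasting, was 2.64, 2.90, 2.99 and 1.88 on the fetal arrays, 5.14 at P1 and 4.73 in the adult, 9.56-fold above E17.5. Cpt1a, the gate of fatty acid oxidation in mitochondria, was 0.76 at E17.5 and 2.46 at P1 (3.24-fold). The lipid droplet genes Plin4 (6.01-fold) and Plin1 (at least 4.03-fold) were higher. In all 6 of 26 lipid storage and oxidation genes compared were at least 2-fold higher and 1 lower (Dgat2, by -1.42), with a median of 0.13. Plin2, the main lipid droplet protein of stellate cells, differed by -0.27. Cholesterol and fatty acid synthesis held level, with 26 of 27 genes under 2-fold and only Srebf1, its regulator, lower (3.09-fold). Fat and muscle markers were higher on the P1 array too, 6 of 8 compared at least 2-fold, among them Fabp4 and Plin1. Their part was not tested.

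Of 16 clock genes compared, 5 were at least 2-fold higher and 0 lower, with a median of 0.44. Nr1d1, the repressor REV-ERB alpha, was -5.19 at E17.5, -2.79 at P1 and 1.47 in the adult (5.28-fold). The clock output factors Dbp (1.65 at P1, 3.14-fold) and Hlf (-2.67 and -0.58, 4.27-fold) were higher, as was Nr1d2 by 1.04, while Arntl, Clock, Per1, Per2 and Cry2 stayed under 2-fold. The sources used here do not give the hour of tissue collection. Among antioxidant and metal genes 4 of 22 were at least 2-fold higher (10.4% of all genes were) and 0 lower, and the median of 0.13 changed sign under median scaling. The 4 were the hormone Hamp (at least 7.47-fold), Gpx3 (2.53-fold), Slc40a1, the iron exporter ferroportin (2.20-fold), and Srxn1 (2.05-fold).

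**Figure D2:**
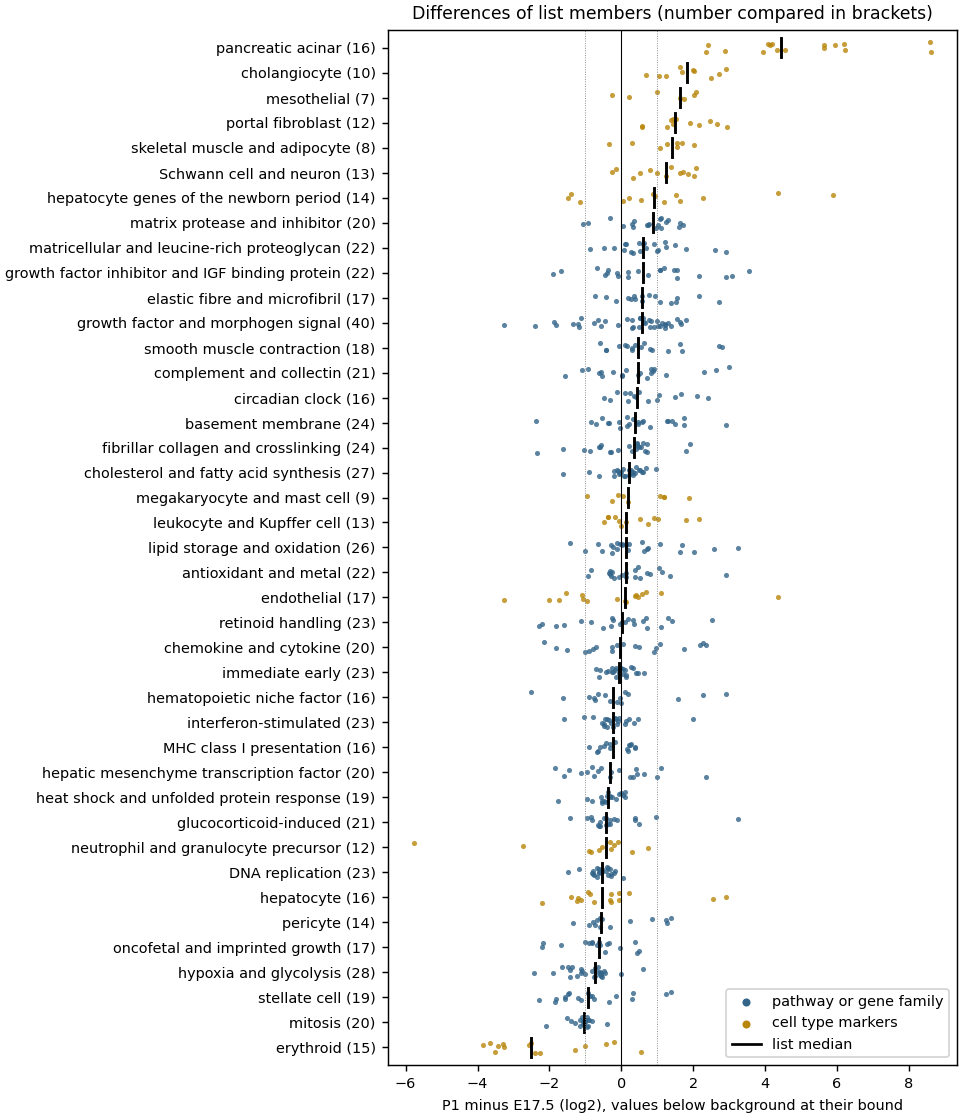
Difference between P1 and E17.5 on the log2 scale (horizontal axis) for each member compared of 41 gene lists (vertical axis), with pathway and family lists in blue, cell type markers in yellow and the list median as a black bar; dotted lines mark 2-fold and values below background stand at their bound. Pancreatic acinar genes lie farthest to the right with a median of 4.44 and erythroid genes farthest to the left at -2.51.

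The largest differences of all belonged to digestive enzymes of the exocrine pancreas. All 16 pancreatic acinar genes compared were at least 4-fold higher at P1 (background 2.36%), with a median of 4.44. Try5, a trypsinogen, was not well above background from E11.5 to E14.5, stood at -5.10 at E17.5 and at 3.48 at P1, a 384-fold difference. Try4, a near copy, was not well above background on any fetal array and was 2.78 at P1, at least 390-fold higher. Trypsinogen genes are so alike that their probes may share signal. Ctrb1, chymotrypsinogen, was -0.34 at E17.5 and 4.20 at P1 (23.3-fold), and Amy2a5, pancreatic amylase, 0.24 and 4.32. Prss2 and Reg1 were at least 73.9-fold and 74.0-fold higher. Of the 12 genes with the highest measured differences, Try5, Cpb1, Cela3b, Ctrb1, Cel and Clps are on this list. Also among the 12 were Gm5771 (219-fold), Gm10334 (204-fold), Cela3a (52.5-fold), Prss1 (38.5-fold) and Sycn (29.3-fold). These are trypsinogen-like genes or secretory genes of the same tissue. Another Prss1 probe was higher by 7.0 on the log2 scale, against 5.27 for the probe used.

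Some acinar genes were well above background before birth, and on the arrays of other cells too. The summed level of the 18 acinar genes measured was 0.61, 1.06, 2.40 and 2.24 on the log2 scale over the fetal arrays, 6.55 at P1 and -0.64 in adult stellate cells, and 12 of 18 were well above background at E17.5 against 16 at P1. Among fetal arrays the summed level at E17.5 was therefore not the highest. The median level of these genes was highest at E17.5, with -6.18, -7.02, -6.83 and -4.14 from E11.5 to E17.5. The genes well above background numbered 7, 8, 8 and 12 on these arrays. They numbered 6 in adult stellate cells, 9 in the fibroblasts and 6 in the mesenchymal stem cells. Summed levels were -0.52 in the fibroblasts and -0.92 in the mesenchymal stem cells. Pdx1, a transcription factor of pancreatic development, was not well above background on the brighter array. The labels call the P1 tissue newborn liver. The part of pancreatic RNA in the other results at P1 was not tested. Of the 350 genes at least 4-fold higher, 35 (10%) stand in the lists of other cell types, and of the 104 lower, 15 (14.4%), against 1.09% of all genes compared. The acinar list gives 16 of the 35. These lists were chosen with earlier results of these data known, so the shares describe the sets and test nothing. Pancreatic and endocrine genes outside these lists are not in this count.

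**Figure D3:**
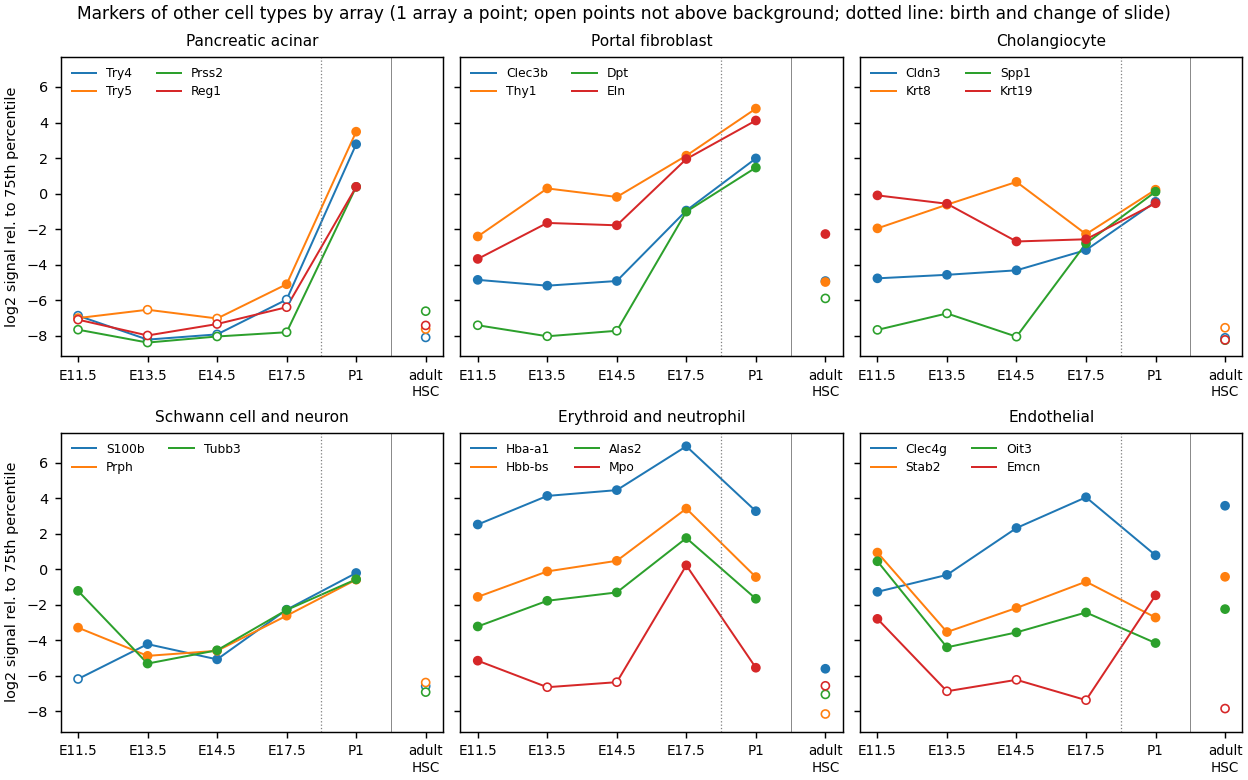
Levels of marker genes of other cell types on the 5 stage arrays in order of age and on the adult stellate cell array, as log2 signal relative to the array's 75th percentile. Each point is 1 array, open points were not well above background, and the dotted line marks birth and the change of slide. The acinar genes shown are highest at P1. The portal fibroblast genes shown rise from E14.5 to E17.5 and again to P1, and the globins and Mpo peak at E17.5.

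Portal fibroblast markers were higher at P1, as they had been at E17.5 over the earlier arrays. Of 12 compared, 10 were at least 2-fold higher and 4 at least 4-fold, with a median of 1.49. Thy1, a surface protein, was -2.41, 0.29, -0.19 and 2.13 on the fetal arrays, 4.78 at P1 and -4.98 in adult stellate cells (6.27-fold above E17.5). Clec3b, tetranectin, was -0.96 at E17.5 and 1.98 at P1 (7.65-fold), and Dpt, dermatopontin, -1.02 and 1.46 (5.58-fold) after being below background up to E14.5. Gas6, Pi16, Cd34 and Entpd2 were higher by 1.42 to 1.92. The summed level of the list was 5.10, 5.61, 5.04, 6.94 and 8.06 over the stages from E11.5 to P1, and 0.95 in the adult.

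Bile duct and mesothelial markers were higher too. Of 10 bile duct genes compared, 9 were at least 2-fold higher and 4 at least 4-fold, with a median of 1.84. Cldn3, of tight junctions, was -3.18 at E17.5 and -0.46 at P1, Krt8, a keratin, -2.28 and 0.22, and Krt19 -2.57 and -0.55, while Epcam was at least 3.95-fold higher. Their summed level was 2.32, 3.43, 4.65, 1.86 and 3.74 over the stages, so P1 lay below E14.5 in the sum. The median level of the list was highest at P1, with -5.42, -5.40, -5.31, -3.87 and -2.43 over the stages. Of the 12 genes measured, 6, 6, 7, 7 and 10 were well above background. Mesothelial markers gave 4 of 7 at least 2-fold higher, with a median of 1.64, led by Msln, mesothelin (4.22-fold), and Upk3b (at least 3.38-fold) beside Krt19 and Cav1. Keratins and Epcam are also made by pancreatic ducts and other epithelia.

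Nerve markers followed the same direction. Of 13 Schwann cell and neuron genes compared, 8 were at least 2-fold higher, with a median of 1.24. Among all genes the share was 16.5% at mean levels between -4 and -2 and 9.27% between -2 and 0, where S100b, Prph and Tubb3 lie. S100b, a glial calcium-binding protein, was -2.28 at E17.5 and -0.22 at P1 (4.19-fold). The neuronal genes Prph, peripherin (-2.62 and -0.59) and Tubb3, neuronal tubulin (-2.30 and -0.57), were higher by 2.03 and 1.73. Sox10, the factor of neural crest and glia, was -2.77 and -1.53. At E11.5 Sox10 had stood at -0.07, above P1. Schwann cells are known to carry p75NTR as well.

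The summed erythroid level and Mpo were highest at E17.5 among the stages. Of 15 erythroid genes compared, 12 were at least 2-fold lower at P1 and 10 at least 4-fold lower (background 0.702%), with a median of -2.51. Hba-a1, an adult globin, was 2.51, 4.12, 4.45 and 6.92 on the fetal arrays and 3.26 at P1 (12.6-fold below E17.5). Hbb-bs was 3.41 and -0.44, Slc4a1, the red cell anion exchanger, 2.56 and -0.95, and Alas2, of heme synthesis, 1.75 and -1.67. The P1 levels of these 4 genes lay between those of E11.5 and E14.5. The summed erythroid level was 5.45, 6.16, 6.31, 7.93 and 5.07 over the stages. Mpo, myeloperoxidase of granulocyte precursors, had the largest measured decrease of all genes, from 0.22 to -5.55 (54.3-fold). Ctsg was at least 6.69-fold lower, but the other 10 granulocyte genes compared were under 2-fold, such as S100a8 (0.80 and 0.27) and Prtn3 (-4.76 and -5.05). Leukocyte and Kupffer cell genes gave 3 of 13 at least 2-fold higher and 0 lower, and megakaryocyte and mast cell genes 4 of 9 and 0. The median levels of these lists were -5.20 and -4.64 at E17.5 and -3.98 and -3.38 at P1. Among all genes, 14.7% were at least 2-fold higher at mean levels below -4 and 16.5% between -4 and -2.

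Endothelial genes went both ways. Of 17 compared, 6 were at least 2-fold lower and 2 higher, 9 were positive, and the median was 0.11, with a sign that changed in 4 of 9 alternatives. The lower members include genes known from the liver sinusoid, a grouping made after their values were seen. Clec4g, a lectin of the sinusoid, was -1.28, -0.32, 2.32 and 4.05 on the fetal arrays, 0.78 at P1 and 3.57 in the adult array (9.63-fold below E17.5). Stab2, a scavenger receptor, was -0.70 and -2.72 (4.06-fold), Oit3 -2.44 and -4.16, Plvap, of endothelial fenestrae, 5.21 and 3.67, and Lyve1 and Stab1 were at -1.09 and -1.07. Pecam1, Cdh5, Kdr, Tie1 and Tek, which all endothelium shares, were under 2-fold, and Flt1, a VEGF receptor, was higher by 1.11. Emcn, endomucin of venous and capillary endothelium, was not well above background at E17.5 and stood at -1.47 at P1, at least 20.5-fold higher.

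Hepatocyte genes went both ways. Of 16 general hepatocyte markers compared, 5 were at least 2-fold lower and 2 higher, with a median of -0.54. Alb, albumin, was 5.55 at E13.5, 7.19 at E14.5, 4.18 at E17.5 and 2.77 at P1, and Ttr, transthyretin, 1.47 and 0.24 across birth. Serpina6, outside the list, which carries corticosteroids in plasma, was 4.91, 6.69, 0.87 and -3.86 from E13.5 to P1 (26.5-fold lower, with another probe at -3.15). Of 14 hepatocyte genes that come on around birth, 6 were at least 2-fold higher and 3 lower, with a median of 0.91. Cyp2e1, a cytochrome of the adult liver, was at least 59.6-fold higher (probes from 3.86 to 5.90), Cyp4a14, of fatty acid hydroxylation, at least 20.6-fold, G6pc, of glucose release, at least 4.86-fold, and Tat, of tyrosine breakdown, 2.85-fold. The summed level of the general list was 7.48 at E17.5 and 6.83 at P1, while 3 genes of the perinatal list, Mup3, Otc and Ass1, were lower as well.

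Other genes among the farthest from equal belonged to none of the lists. Nts, neurotensin, a gut peptide, was -4.57 at E17.5 and -0.20 at P1 (20.8-fold higher), and Ppy, pancreatic polypeptide, was at least 52.7-fold higher. On the lower side were Pde8b, a cAMP phosphodiesterase (0.51 and -3.63, 17.6-fold), Hdac9, a histone deacetylase (-0.48 and -4.48, 16.0-fold), Aqp8, a water channel (-0.26 and -4.22, 15.6-fold), Zbtb8b (1.97 and -1.90, 14.6-fold) and Dgkk, a diacylglycerol kinase (-1.05 and -4.90, 14.4-fold). Dkk1, a Wnt inhibitor, was 1.21, 1.70, 1.51 and -1.44 on the fetal arrays and -5.17 at P1 (13.3-fold), so its decrease began before E17.5. Pde8b was 3.14 in adult stellate cells, far above its P1 level. 1110032F04Rik, of unstated function here, was 11.3-fold lower. Where only E17.5 was well above background, Pcdhb1, a protocadherin, was at least 8.32-fold lower, Il1rl1, the receptor of interleukin-33, at least 7.98-fold, Mroh7 at least 6.59-fold and Tmem139 at least 6.57-fold. Of the 4-fold genes, 58 had another probe compared, and in all 58 every such probe had the same sign, with 39 also at least 2-fold apart by every one.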

How the data were processed

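The arrays are 1-color Agilent mouse arrays labelled with Cy3. The intensity values are spot signals that the authors' scanner software, Agilent Feature Extraction 11.5.1.1, had background-subtracted, per the file headers. Outlier spots were dropped, repeat spots averaged, and signals divided by the array's 75th percentile and log2-transformed in Python 3.11.15 with numpy 2.4.6 and pandas 2.3.3. The deposited log2 table matched these values within 0.02 for 100% of probes after a constant of -0.12 on both arrays (column medians -3.89 at E17.5 and -3.55 at P1). It is not centered per gene, and the sources used here do not give its scaling constant.

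Probes were named through RefSeq transcript accessions (26581 of 39429, 67.4%), and 20144 genes took their brightest probe over the 8 arrays. A level below background was set to the lowest level well above background on its array, or to its own value if that was higher. Members of 41 lists (773 of 784 symbols had a probe) were counted at 2-fold. Lists, members and motifs were chosen with earlier results of these data known.

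Genes were named by a rule: the 12 highest and 12 lowest measured differences, up to 6 bounds a side, up to 4 members of each list at least 2-fold apart, with Acta2, Col1a1, Des, Lrat, Ngfr and Tcf21 added. Other genes were named after their values were seen, and some that the rule names are left out of the text. Alternatives were median, quantile and loess normalization (R 4.3.3, limma 3.58.1), normexp with offset 50, the deposited table, both filters, mean of probes, and measured values in place of bounds. Normexp was run on median spot brightness, and mean spot brightness was not analysed here. The calculation of differences and bounds was tested on simulated data.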

Additional observations from a re-analysis of the deposited data

How the results depend on the processing

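With 1 array a stage no array could be left out and animals have no measured spread. No paired analysis was possible because each stage has 1 array. At least 4-fold higher and lower were 219 and 177 genes, and at least 2-fold 940 and 1402, with arrays scaled to their median, which moved the median of all genes to -0.33. At least 4-fold lower were 160 after quantile normalization and 226 after loess. Normexp with offset 50, which draws dim signals together, left 57 and 32 genes at least 4-fold higher and lower and 455 and 265 at least 2-fold. Among genes above background on both arrays 227 were at least 4-fold higher, and with measured values in place of bounds 566 were higher and 178 lower. All 104 lower genes remained at 4-fold under median scaling, 102 under quantile normalization and 100 under loess, and of the 350 higher ones 219, 276 and 255 remained. No direction was reversed among the 155 named genes at least 2-fold apart, but several alternatives could not reverse one. Both filters kept the main differences, measured values kept the sign of their bounds, and the deposited table held the same values apart from a constant. Median scaling shifted all genes together by less than 2-fold. Of the 155 genes, 110 stayed at least 2-fold in each alternative that gave a value. Those that did not are mostly dim, such as Nr1d1 (0.48 at the lowest), Plin4 (0.87), Cdc6 (-0.52) and Lin28b (-0.47), each with normexp. Of 41 list medians 34 kept their sign in all 9 alternatives. The exceptions were retinoid handling, cholesterol and fatty acid synthesis, lipid storage and oxidation, antioxidant and metal, megakaryocyte and mast cell, leukocyte and Kupffer cell, and endothelial genes. The cause of these differences between settings was not tested.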

Other observations

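Hormone genes of the islet and of gut endocrine cells were higher on the P1 array beside the acinar enzymes. This list was chosen after the values were seen and supports nothing by its count. Of 14 genes compared, 12 were at least 2-fold higher and 11 at least 4-fold. Ins1 and Ins2, the insulin genes, were -1.28 and -1.38 at E17.5 and 1.55 and 1.51 at P1 (7.12-fold and 7.43-fold). Sst, somatostatin, was not well above background up to E14.5, 0.31 at E17.5 and 2.0 at P1. Gcg, glucagon, was -0.03 at E11.5, not well above background at E17.5 and at least 12-fold higher at P1. Pyy was -1.60 and 1.35, Ghrl, ghrelin, -2.86 and 0.28, and Chga, a granin of secretory granules, -3.04 and -0.09. Cck and Sct, made by gut endocrine cells, differed by -0.35 and 0.21, and Neurod1 and Pax6 were not well above background on the brighter array.

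Pancreatic secretory genes outside the acinar list, also chosen after the values were seen, gave 14 of 16 compared at least 2-fold higher and 11 at least 4-fold, with a median of 4.80. Bhlha15, a factor of secretory cells, differed by -0.67. Of intestinal genes, 3 of 6 compared were at least 2-fold higher and 0 at least 4-fold, and the intestinal factor Cdx2 was not well above background on the brighter array. Of lung genes, 1 of 3 was at least 2-fold higher, Sftpd (11.6-fold, with another probe higher by 0.89 on the log2 scale). Sftpb and Sftpc were not well above background on the brighter array.

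Among probes without a gene name, 6203 were compared, of which 100 were at least 4-fold higher and 24 at least 4-fold lower.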
